A study of Mus musculus with 18 samples.

Results

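The genes described here carry glucose and other hexoses across the cell membrane or act on glucose just after its entry: the facilitative transporters Slc2a1, Slc2a2, Slc2a3, Slc2a4, Slc2a5 and Slc2a9, the hexokinases Hk1 and Hk2, and Gckr, a regulatory protein of hexose metabolism. All 9 were measured, of 20358 genes in all, and each was the mean of all probe sets annotated to its symbol alone, between 10 probe sets for Slc2a2 and 25 for Hk1. The groups were MKR fat, MKR liver and MKR muscle and their healthy (WT) counterparts, from male FVB/N mice aged 10 weeks, 3 MKR and 3 WT, with 1 Affymetrix Mouse Gene 1.0 ST array for each tissue of each mouse. MKR mice were studied as a model of type 2 diabetes and carry, per the labels, a mutated IGF-1 receptor in skeletal muscle, so that fat and liver are not the labelled site of the mutation, and the promoter that drives it is not named. Neither the adipose depot nor the muscle sampled is named in the labels, and all mice were fed the same rodent diet. Values are log2 intensities, obtained as 2 to the power of the deposited value, on which a difference of 1 is a doubling.

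Transporters of the Slc2 family let sugars move down their gradient, and hexokinases trap glucose in the cell by phosphorylating it. Slc2a1 (GLUT1) and Slc2a3 (GLUT3) serve basal uptake in many cell types, Slc2a2 (GLUT2) is the low-affinity transporter of liver and pancreatic beta cells, and Slc2a4 (GLUT4) is held in vesicles in muscle and fat cells and moves to the cell surface when insulin is present. Slc2a5 (GLUT5) transports fructose and Slc2a9 (GLUT9) transports urate. Hk1 and Hk2 are the high-affinity hexokinases, with Hk2 the main form of muscle and fat, and Gckr is a regulatory protein known from liver.

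The tissues carried the markers of their labels. The mean over 6 hepatocyte markers was 12.1 to 12.2 in WT liver, and the mean over 6 skeletal muscle markers was 12.2 in all WT muscle arrays. MKR fat replicate 1 stood apart from the other 5 fat arrays. It was higher than all of them in 10 of 11 epididymis and testis markers, by a median of 5.56, and lower than all of them in 4 of 5 adipocyte markers, by a median difference of -1.49, and in 6 of 6 endothelial markers. Results in fat are therefore given with and without it. In muscle the albumin gene Alb read 8.97 in MKR replicate 1 and 9.89 and 7.73 in WT replicates 1 and 2, against 5.29 to 6.14 in the other 3 muscle arrays.

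The tissue isoforms were compared in WT mice. A set of 4 genes was higher in muscle than in liver, namely Slc2a4, Hk2, Hk1 and Slc2a3, and a further 4 were lower, namely Slc2a2, Gckr, Slc2a9 and Slc2a5. The same split was seen for fat against liver. Thus 8 of 9 genes were called in each of these comparisons at an adjusted p under 0.05 (limma with Benjamini-Hochberg adjustment over all genes), where 40.4% of all genes were called for muscle minus liver and 35.4% for fat minus liver. Between muscle and fat 4 of 9 genes were called, against 37.8% of all genes. The median absolute difference of the 9 genes was 1.95 for muscle minus liver and 1.62 for fat minus liver, against 0.26 and 0.24 over all genes. Several WT groups lie near or below 5: Gckr and Slc2a2 in muscle and fat, and Hk1, Hk2, Slc2a3 and Slc2a4 in liver. The gene mean of Slc2a5 does so in every tissue. A gene mean there cannot by itself be told from array background here, although single probe sets can lie higher. The folds of these genes are therefore ratios of measured intensity and may understate the ratio of RNA.

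**Figure D1:**
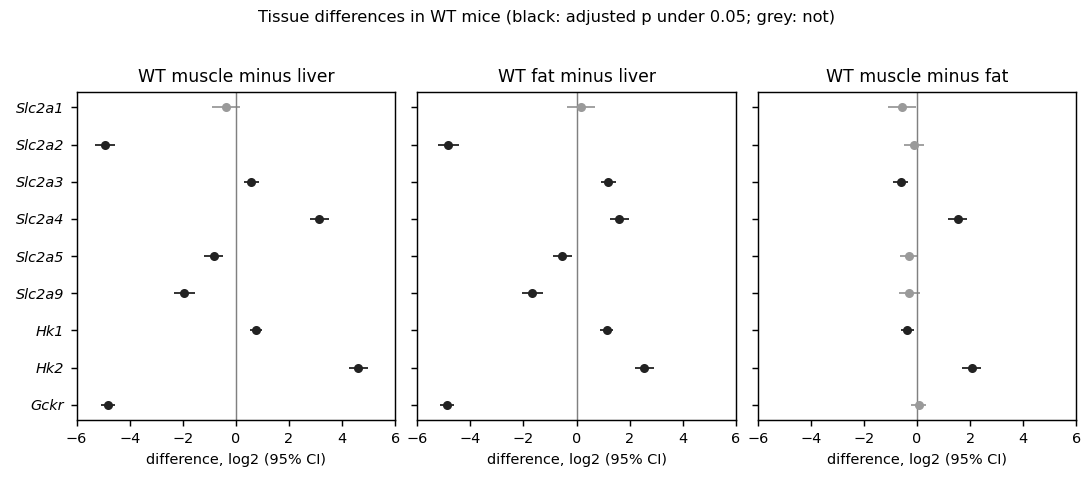
Differences between the tissues of WT mice for each gene on the log2 scale, with 95% confidence intervals from limma. Black points passed an adjusted p of 0.05 and grey points did not: Hk2 and Slc2a4 lie farthest to the right for muscle minus liver, Slc2a2 and Gckr farthest to the left, and Slc2a1 is grey in all 3 comparisons.

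Among the genes low in muscle and fat, Slc2a2 and Gckr differed most. Slc2a2 had 5.01, 5.20 and 5.27 in WT muscle, 5.25, 5.18 and 5.38 in WT fat and 10.48, 9.68 and 10.13 in WT liver. Muscle was 30.7-fold lower than liver (log2 difference -4.94, SE 0.18, adjusted p = 6.13e-13) and fat 28.4-fold lower (-4.83, SE 0.18, adjusted p = 1.48e-12). Every WT liver array was far above every muscle and fat array, and muscle and fat did not differ beyond their spread (-0.11, 95% interval -0.50 to 0.27). Gckr had 4.73, 4.85 and 4.75 in WT muscle, 4.57, 4.69 and 4.88 in WT fat and 9.53, 9.35 and 9.90 in WT liver. It was 28.2-fold lower in muscle than in liver (-4.82, SE 0.13, adjusted p = 8.77e-15) and 29.4-fold lower in fat than in liver (-4.88, SE 0.13, adjusted p = 1.3e-14). Slc2a2 and Gckr stayed low in the muscle arrays with raised Alb, where Slc2a2 read 5.39 in MKR replicate 1 and 5.01 and 5.20 in WT replicates 1 and 2.

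The urate transporter Slc2a9 followed the same pattern with a smaller step. It read 5.43, 5.40 and 5.53 in WT muscle, 5.68, 5.75 and 5.80 in WT fat and 7.69, 7.15 and 7.39 in WT liver, which made muscle 3.87-fold lower than liver (-1.95, SE 0.19, adjusted p = 1.73e-07) and fat 3.17-fold lower than liver (-1.67, SE 0.19, adjusted p = 1.86e-06). The arrays of the 3 tissues did not overlap, and muscle minus fat was not called (-0.29, adjusted p = 0.252). The fructose transporter Slc2a5 had the smallest step of these 4. It had 4.16, 4.46 and 4.19 in WT muscle, 4.56, 4.50 and 4.66 in WT fat and 5.33, 5.16 and 4.84 in WT liver, so that muscle was 1.79-fold lower than liver (-0.84, SE 0.17, adjusted p = 0.000572) and fat 1.45-fold lower (-0.54, SE 0.17, adjusted p = 0.0186). The difference between fat and liver rested on some of the probe sets: with their median in place of their mean it was -0.24 (adjusted p = 0.526), and it also lost its call when WT fat replicate 1 or 2 or WT liver replicate 1 or 2 was omitted, with adjusted p between 0.0517 and 0.0897.

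The insulin-responsive pair Slc2a4 and Hk2 was highest in muscle, lower in fat and lowest in liver. Slc2a4 had 8.20, 8.18 and 8.13 in WT muscle, 6.61, 6.68 and 6.64 in WT fat and 5.04, 4.92 and 5.12 in WT liver. Muscle was thus 8.81-fold above liver (3.14, SE 0.17, adjusted p = 7.78e-11) and 2.88-fold above fat (1.52, SE 0.17, adjusted p = 1.52e-06), and fat was 3.07-fold above liver (1.62, SE 0.17, adjusted p = 6.75e-07). Hk2 had 9.08, 9.08 and 9.70 in WT muscle, 7.59, 7.16 and 6.93 in WT fat and 4.61, 4.87 and 4.55 in WT liver. Its measured steps were 24.4-fold for muscle over liver (4.61, SE 0.17, adjusted p = 5.6e-13), 4.17-fold for muscle over fat (2.06, SE 0.17, adjusted p = 5.6e-08) and 5.86-fold for fat over liver (2.55, SE 0.17, adjusted p = 2.91e-09). For both genes the 3 tissues were fully separated.

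Hk1 and Slc2a3 had their highest values in fat. Hk1, the hexokinase of most tissues, had 5.86, 5.62 and 5.74 in WT muscle, 6.19, 6.15 and 5.999 in WT fat and 4.78, 5.08 and 5.09 in WT liver. It was 1.69-fold higher in muscle than in liver (0.75, SE 0.11, adjusted p = 4.17e-05), 2.19-fold higher in fat than in liver (1.13, SE 0.11, adjusted p = 6.34e-07) and 1.3-fold lower in muscle than in fat (-0.37, SE 0.11, adjusted p = 0.0163). Slc2a3 had 5.37, 5.57 and 5.41 in WT muscle, 5.86, 5.96 and 6.37 in WT fat and 4.77, 5.01 and 4.82 in WT liver. Its difference was 0.58 for muscle minus liver (SE 0.13, adjusted p = 0.0018), 1.20 for fat minus liver (SE 0.13, adjusted p = 1.72e-06) and -0.61 for muscle minus fat (SE 0.13, adjusted p = 0.00143). Without the 3 muscle arrays with raised Alb, 2 of these calls were lost, Hk1 for muscle minus fat (-0.37, adjusted p = 0.101) and Slc2a3 for muscle minus liver (0.54, adjusted p = 0.0656). The call of Hk1 for muscle minus fat was also lost without WT fat replicate 1 or 2 or WT muscle replicate 2, with adjusted p between 0.0535 and 0.0747. Both genes were highest in the tissue where 6 of 6 macrophage markers and 6 of 6 endothelial markers were also above liver. The mean over the macrophage markers was 6.19 to 6.79 in WT muscle, 8.12 to 8.52 in WT fat and 6.72 to 6.98 in WT liver. For the endothelial markers it was 7.17 to 7.44, 8.03 to 8.33 and 6.27 to 6.40, so WT muscle was above liver too. For the adipocyte markers it was 5.30 to 5.66, 10.25 to 10.44 and 5.21 to 5.42. The part of any of these cells in the levels of Hk1 and Slc2a3 was not tested.

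Slc2a1 alone among the 9 genes was called in no comparison of WT tissues. It had 6.65, 6.19 and 6.25 in WT muscle, 7.24, 6.95 and 6.62 in WT fat and 6.41, 6.58 and 7.25 in WT liver, and the 3 tissues overlapped. The widest difference was muscle minus fat (-0.57, 95% interval -1.10 to -0.04, adjusted p = 0.0837). Its SE of 0.25 was the largest of the 9 genes, so a difference of up to 1.10 between muscle and fat lies within the interval. Muscle minus fat passed the threshold under some settings (adjusted p = 0.031 with the arrays of these groups alone, 0.0447 when probe sets were summarised by their median, 0.0153 with array weights and 0.0497 without WT fat replicate 3), and muscle minus liver did when the median was used (-0.74, adjusted p = 0.0362).

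**Figure D2:**
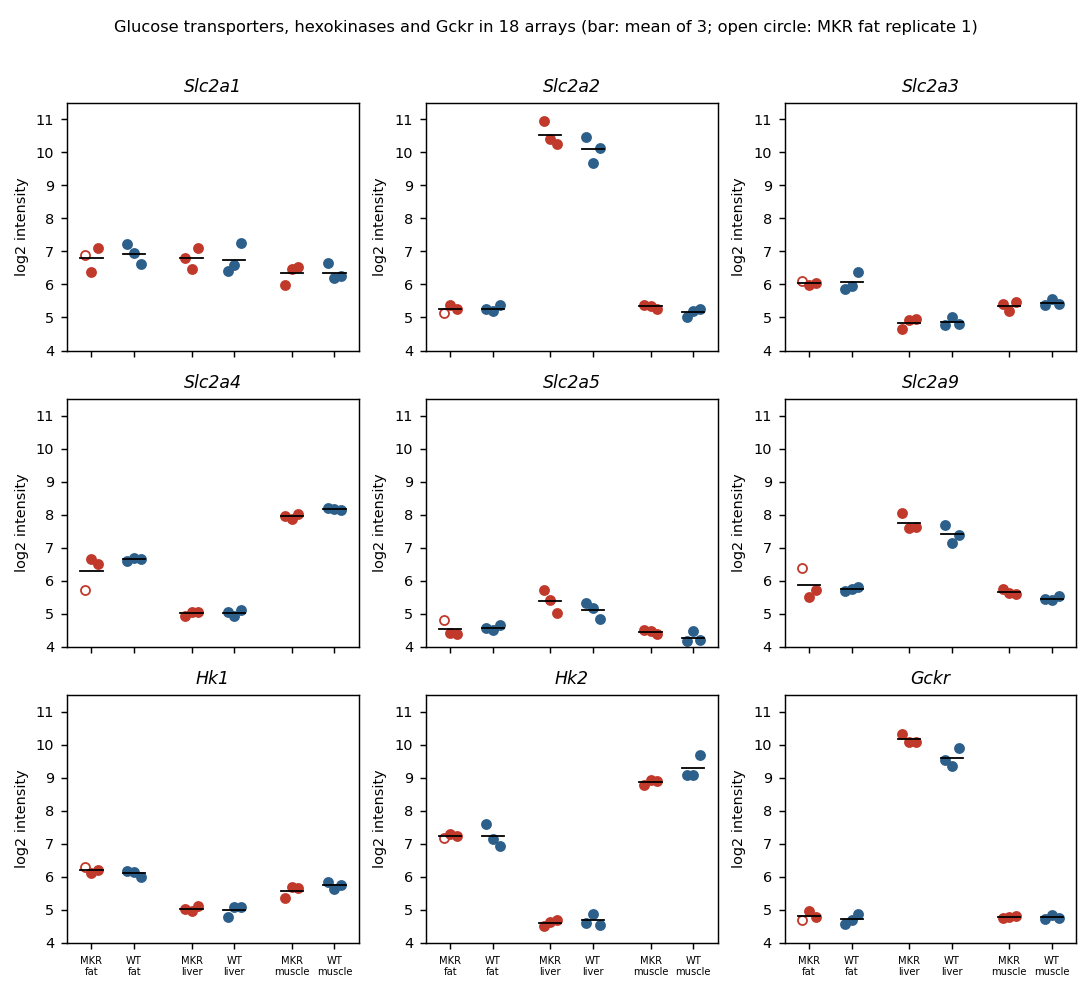
Log2 intensity of each gene in the 18 arrays, with MKR in red and WT in blue, a bar at the mean of 3 arrays and an open circle for MKR fat replicate 1. Slc2a2, Slc2a9 and Gckr stand out in liver, Slc2a4 and Hk2 in muscle with intermediate values in fat, and the MKR and WT points lie close together next to these steps.

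The promoters of 3 of these genes are shown for the contrast between a gene high in liver, a gene high in muscle and a gene with no tissue difference called. Each sequence gives the 250 bases before the start of the gene in RefSeq on GRCm38.p6, read along the gene's own strand, and capitals mark the words GGGCGG (the GC box bound by Sp1), TATAAA (the TATA box), CACGTG (the E-box) and GTTAAT (a half-site of HNF1), each searched on both strands. The Slc2a2 window lies at chr3:28697653-28697902 on the + strand, the Hk2 window at chr6:82774455-82774704 on the - strand and the Slc2a1 window at chr4:119108495-119108744 on the + strand.
Slc2a2: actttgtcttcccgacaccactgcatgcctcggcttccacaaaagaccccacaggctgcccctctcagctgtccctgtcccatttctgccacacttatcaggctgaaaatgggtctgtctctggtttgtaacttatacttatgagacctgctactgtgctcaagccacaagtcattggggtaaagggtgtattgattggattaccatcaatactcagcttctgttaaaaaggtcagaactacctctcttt
Hk2: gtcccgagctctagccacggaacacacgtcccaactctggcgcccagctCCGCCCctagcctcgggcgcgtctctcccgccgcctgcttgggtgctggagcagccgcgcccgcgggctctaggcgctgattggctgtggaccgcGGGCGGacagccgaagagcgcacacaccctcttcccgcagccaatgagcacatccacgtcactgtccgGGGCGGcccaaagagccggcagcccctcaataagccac
Slc2a1: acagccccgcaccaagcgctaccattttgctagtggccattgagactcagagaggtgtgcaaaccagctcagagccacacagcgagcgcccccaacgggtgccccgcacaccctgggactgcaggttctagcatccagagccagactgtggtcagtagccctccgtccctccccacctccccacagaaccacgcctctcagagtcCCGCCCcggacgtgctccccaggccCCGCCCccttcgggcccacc
The liver gene Slc2a2 had 2 CG dinucleotides, 47.2% G and C and none of the words, whereas the muscle gene Hk2 had 25 CG dinucleotides, 69.6% G and C and 3 GC boxes, and Slc2a1 had 13 CG dinucleotides, 66.4% G and C and 2 GC boxes. Over all 32851 windows the medians were 6 CG dinucleotides and 52.4% G and C, and 32.7% of windows held GGGCGG. Of the 8 windows found for 7 of the genes (Hk1 has 2 starts), GGGCGG was in 3. The third was that of Slc2a5, which is higher in liver than in muscle and had 15 CG dinucleotides and 66.4% G and C. Slc2a9 and Gckr, also higher in liver, had 1 and 6 CG dinucleotides. The 2 windows of Hk1, higher in muscle than in liver, had 14 and 1 and none of the words. GTTAAT was in 1 window, that of Gckr, against 6.43% of all windows. TATAAA and CACGTG were in none of the 8, against 12.4% and 6.02% of all windows. A match of letters is a description of the window and no evidence of binding. The promoters of Slc2a3 and Slc2a4 were not analysed here.

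The probe sets of a gene differed in how much of a tissue step they carried. For Hk2 all 19 were higher in WT muscle than in WT liver, by 1.01 to 7.90, and for Slc2a4 all 13 were, by 0.37 to 7.16. All 10 probe sets of Slc2a2 and all 18 of Gckr were lower in muscle than in liver, by differences between -6.48 and -3.03 for Slc2a2 and between -6.65 and -0.82 for Gckr. The gene means above therefore average strong and weak probe sets, and the folds refer to these means. For Slc2a9, 16 of 17 were lower in muscle than in liver and 1 was higher by 0.99. That single probe set was also higher in fat than in liver, by 2.02. Slc2a5 and Slc2a3 were more mixed, with 12 of 15 probe sets lower and 10 of 12 higher in muscle than in liver, and for Slc2a1 only 3 of 11 had muscle arrays that did not overlap with those of liver.

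**Figure D3:**
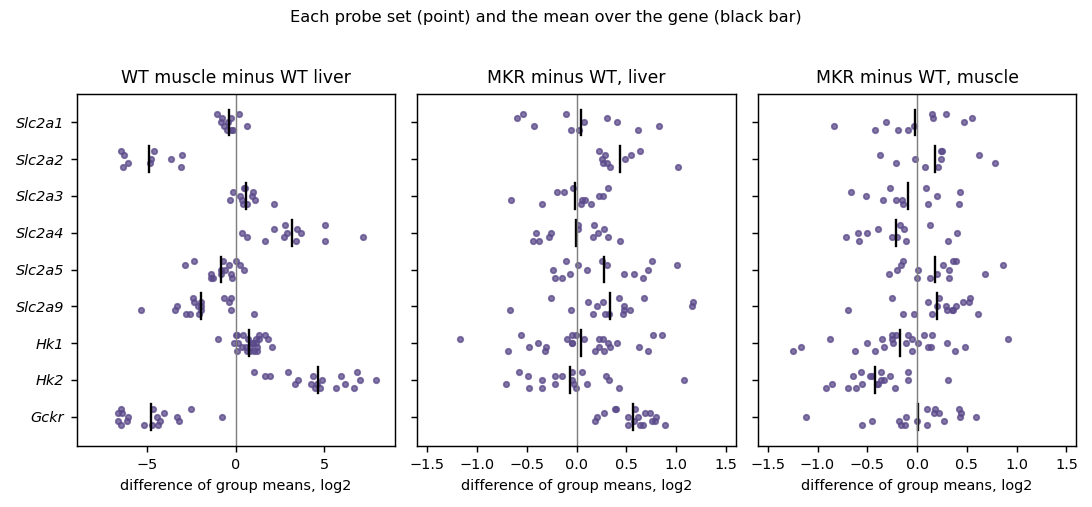
Differences of group means on the log2 scale for every probe set of a gene (points) with the mean over the gene (black bar), for WT muscle minus WT liver and for MKR minus WT in liver and in muscle. All Gckr and Slc2a2 points lie right of 0 in the liver panel, 18 of 19 Hk2 points lie left of 0 in the muscle panel, and the 2 right panels have a narrower axis than the left one.

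The main question of the series is what differs between MKR and WT mice in each tissue. None of the 9 genes was called in fat, liver or muscle, with all 18 arrays or without MKR fat replicate 1. The shares of all genes called were 0.0393% in fat, 0.0344% in liver and 0.201% in muscle, and without that array 0.152%, 0.0835% and 0.712%. At an unadjusted p under 0.05 the number was 0 in fat, 2 in liver (Gckr and Slc2a2) and 1 in muscle (Hk2), where 7.78%, 5% and 10.5% of all genes were below that limit. The median change of the 9 genes was -0.02 in fat, 0.05 in liver and -0.02 in muscle, against 0.0017, -0.0048 and 0.004 over all genes. The groups did not overlap for 0 genes in fat, 1 in liver and 3 in muscle, where 11.7%, 9.43% and 21.9% of all genes did not overlap.

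In liver the 4 genes that were higher there than in muscle and fat of WT mice had higher means in MKR mice, with none past the threshold. Among them the gene mean of Slc2a5 lay at 4.84 to 5.33 in WT liver, a level that by itself cannot be told from array background here. Of its 15 probe sets, 12 were lower and 3 higher in WT muscle than in WT liver. The groups did not overlap in 10 of the lower ones and 1 of the higher ones. Probe set 10510525 read 7.06 in WT liver and 4.16 in WT muscle, whereas 10510517 read 3.62 and 3.39. Gckr had 10.33, 10.09 and 10.07 in MKR liver, against 9.53, 9.35 and 9.90 in WT liver. All MKR arrays were above all WT arrays, with the nearest pair at 10.07 and 9.90. The difference was 0.57 (1.48-fold, SE 0.13, 95% interval 0.29 to 0.84, unadjusted p = 0.000473, adjusted p = 0.214 by limma). Its adjusted p was 0.126 without MKR fat replicate 1, which enters through the common estimate of the spread, and 0.047 without WT liver replicate 3, where the difference was 0.72. All 18 Gckr probe sets had the higher mean in MKR liver, by 0.19 to 0.89, and in 12 of them the groups did not overlap. These probe sets share the same 6 arrays and are not separate evidence.

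Slc2a2 had 10.95, 10.40 and 10.25 in MKR liver, against 10.48, 9.68 and 10.13 in WT liver. The groups overlapped through WT replicate 1, and the difference of 0.44 (1.35-fold, SE 0.18, 95% interval 0.05 to 0.82) had an unadjusted p of 0.0293 and an adjusted p of 0.921 by limma. All 10 of its probe sets had the higher mean in MKR liver, by 0.23 to 1.02, and in 0 of them did the groups separate. Slc2a9 had 8.03, 7.59 and 7.63 in MKR liver, against 7.69, 7.15 and 7.39 in WT liver (0.34, 95% interval -0.05 to 0.73). Slc2a5 had 5.72, 5.42 and 5.02 in MKR liver, against 5.33, 5.16 and 4.84 in WT liver (0.28, 95% interval -0.08 to 0.63). In MKR liver the same mouse, replicate 1, was highest for Slc2a2, Slc2a5, Slc2a9 and Gckr, and in WT liver replicate 1 was highest for Slc2a2, Slc2a5 and Slc2a9, while Gckr was highest in replicate 3.

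The genes lower in liver than in muscle and fat, and Slc2a1 with no tissue difference called, showed smaller differences there. The changes of Slc2a1, Slc2a3, Slc2a4, Hk1 and Hk2 in liver lay between -0.07 and 0.05, with both genotypes at 4.92 to 5.12 for Slc2a4 and at 4.50 to 4.87 for Hk2. For Slc2a4 the 95% interval was -0.36 to 0.34, and for Slc2a1 it was wider, -0.48 to 0.57. The markers of hepatocytes gave a mean of 12.1 in each MKR liver array and of 12.1 to 12.2 in WT liver.

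**Figure D4:**
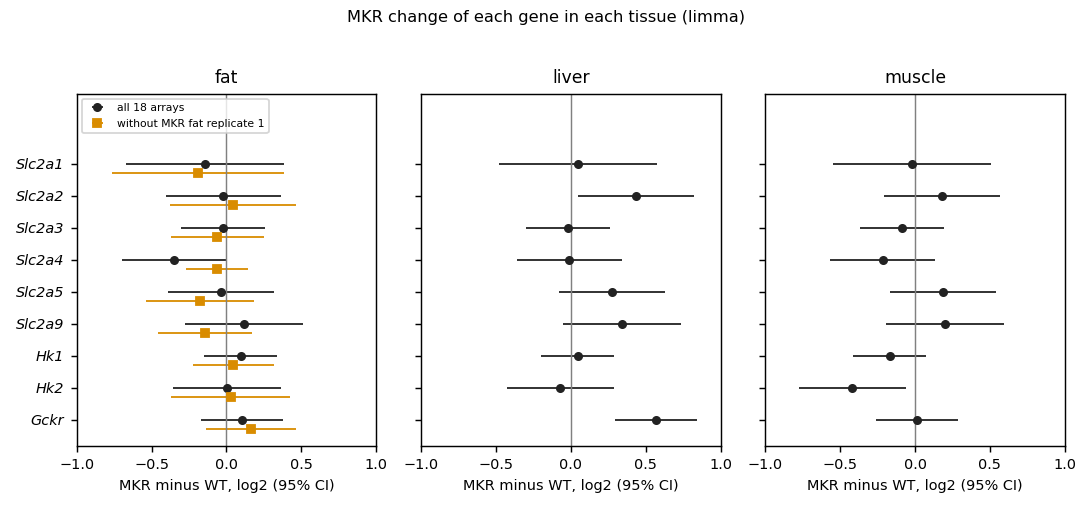
MKR minus WT difference of each gene in fat, liver and muscle on the log2 scale, with 95% confidence intervals from limma. In fat, orange squares give the values without MKR fat replicate 1, which move Slc2a4 to -0.06; the intervals of Gckr and Slc2a2 in liver and of Hk2 in muscle do not reach 0, although no adjusted p passed 0.05.

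Muscle, the tissue of the mutated receptor, gave lower means for the insulin-responsive pair. Hk2 had 8.78, 8.93 and 8.90 in MKR muscle, against 9.08, 9.08 and 9.70 in WT muscle. The groups did not overlap, and WT replicate 3 was well above the other 2 WT arrays. The difference was -0.42 (1.34-fold lower, SE 0.17, 95% interval -0.78 to -0.06, unadjusted p = 0.0244, adjusted p = 0.396 by limma), and with each array omitted in turn it ranged from -0.52 to -0.21. In 18 of 19 Hk2 probe sets the mean was lower in MKR muscle, with no overlap in 9. Slc2a4 had 7.97, 7.86 and 8.02 in MKR muscle, against 8.20, 8.18 and 8.13 in WT muscle, again with no overlap. Its difference was -0.22 (1.16-fold lower, SE 0.17, 95% interval -0.57 to 0.13, adjusted p = 0.704), and 10 of 13 probe sets had the lower mean. The groups did not overlap in 2 of the 13 with lower values and in 1 with higher values in MKR muscle. Without MKR fat replicate 1 the SE of Slc2a4 was 0.09 and the adjusted p 0.301, with the same difference. Omission of the 3 muscle arrays with raised Alb left 2 MKR arrays and 1 WT array, WT replicate 3, the array with the high Hk2 value of 9.70. The differences were then -0.79 for Hk2, which rests on that array, and -0.19 for Slc2a4. In this fit the single WT array is assumed to vary like the other groups.

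Slc2a9 was the third gene with separated groups in muscle, at 5.73, 5.63 and 5.61 in MKR muscle, against 5.43, 5.40 and 5.53 in WT muscle (0.20, 95% interval -0.19 to 0.59, adjusted p = 0.775). Of its 17 probe sets, 13 had the higher and 4 the lower mean in MKR muscle, and the groups separated in 4. Its brightest probe sets read 9.32 and 8.62 in WT muscle, 9.93 and 9.15 in MKR muscle and 8.32 and 8.91 in WT liver. The others read 6.10 or below in WT muscle, not far above array background. Slc2a5 and Slc2a2 had differences of 0.18 each with overlapping groups, at levels of 5.39 or below in every muscle array. Hk1 had 5.36, 5.68 and 5.67 in MKR muscle, against 5.86, 5.62 and 5.74 in WT muscle (-0.17, 95% interval -0.41 to 0.07). For Slc2a3, Slc2a1 and Gckr the differences were -0.09, -0.02 and 0.01.

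In fat the reading of Slc2a4 depended on 1 array. It had 5.73, 6.66 and 6.50 in MKR fat, against 6.61, 6.68 and 6.64 in WT fat, with replicate 1 well below the other 5 arrays. The difference was -0.35 with all arrays (95% interval -0.70 to 0.0017, adjusted p = 0.64) and -0.06 without MKR fat replicate 1 (95% interval -0.27 to 0.14, adjusted p = 0.899). In the same array Pparg, the adipocyte transcription factor, read 8.44, against 9.67 to 10.03 in the other 5 fat arrays, and Adipoq 10.38, against 11.39 to 11.61. Slc2a9 was displaced upward in it. It had 6.38, 5.49 and 5.70 in MKR fat, against 5.68, 5.75 and 5.80 in WT fat, and its difference was 0.11 with replicate 1 and -0.15 without it. Slc2a5 and Hk1 were also highest in that array, at 4.81, against 4.37 to 4.66 in the other fat arrays, for Slc2a5 and at 6.31, against 5.999 to 6.21, for Hk1. How much of these levels comes from the tissue with epididymal markers was not tested.

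None of the other genes was called in fat with or without that array. Hk2 had 7.18, 7.29 and 7.23 in MKR fat, against 7.59, 7.16 and 6.93 in WT fat, a difference of 0.0033 with all arrays and 0.03 without replicate 1 (95% interval -0.37 to 0.42). The MKR arrays lay within the range of the WT arrays. Slc2a1 had 6.89, 6.38 and 7.10 in MKR fat, against 7.24, 6.95 and 6.62 in WT fat (-0.14, 95% interval -0.67 to 0.39, and -0.19 without replicate 1), and Slc2a3 had 6.12, 5.97 and 6.04 in MKR fat, against 5.86, 5.96 and 6.37 in WT fat (-0.02, 95% interval -0.30 to 0.26, and -0.06 without replicate 1). For Hk1 the difference was 0.10 with all arrays and 0.05 without replicate 1 (95% interval -0.22 to 0.32), and for Gckr it was 0.10 with all arrays and 0.16 without it (95% interval -0.14 to 0.47). Slc2a5 had a difference of -0.04 with all arrays and -0.18 without replicate 1 (95% interval -0.53 to 0.18). For Slc2a2 the sign turned, with -0.02 for all arrays and 0.04 without replicate 1 (95% interval -0.38 to 0.46). The groups of these 4 genes overlapped with all arrays. These are bulk tissues, in which fewer cells of a type and less RNA per cell cannot be told apart.

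The difference of the MKR change between tissues was tested for each gene as a contrast of contrasts, and 0 of 9 were called in any pair of tissues, where 0% of all genes were called for fat minus liver, 0.0737% for muscle minus liver and 0.103% for fat minus muscle. At an unadjusted p under 0.05 there was 1 gene for fat minus liver, 1 for muscle minus liver, in each case Gckr, and 0 for fat minus muscle, where 6%, 10.3% and 8.03% of all genes were below that limit. Its MKR change was lower in muscle than in liver by a difference of -0.56 (95% interval -0.95 to -0.17, adjusted p = 0.336) and lower in fat than in liver by a difference of -0.47 (95% interval -0.85 to -0.08, adjusted p = 0.775). Gckr was near its lowest level in fat and muscle of both genotypes, at 4.57 to 4.97.

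Other genes of hexose uptake and its control were followed as lists. In the comparison of MKR with WT mice, 0 genes passed the threshold in any of the 5 lists in any tissue. Among 6 other members of the Slc2 family the smallest adjusted p was 0.535 in fat, for Slc2a10, and in WT mice Slc2a12 (GLUT12) was higher in muscle, with 7.39, 7.16 and 7.32 in WT muscle, 5.35, 5.56 and 5.48 in WT fat and 4.93, 4.92 and 5.04 in WT liver (2.32 for muscle minus liver, adjusted p = 3.39e-11). Slc2a13, a proton-coupled myo-inositol transporter, was higher in fat than in liver, at 6.50, 6.15 and 6.27 in WT fat, against 4.96, 5.15 and 4.98 in WT liver.

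A further list held 5 measured sugar kinases. Khk, ketohexokinase, which phosphorylates fructose, had 9.43, 9.44 and 8.77 in MKR liver, against 8.62, 8.21 and 8.37 in WT liver. The groups did not overlap, and the difference of 0.81 (1.76-fold, 95% interval 0.36 to 1.27) had an adjusted p of 0.403, and of 0.131 without MKR fat replicate 1. In WT mice 3 of 5 kinases were lower in muscle than in liver, namely Khk, Galk1 and Adpgk, and the same 3 were lower in fat than in liver, where 40.4% and 35.4% of all genes were called in either direction. Of 7 sodium-glucose cotransporters, which carry glucose against its gradient in gut and kidney, 3 were called between WT muscle and WT liver, 1 higher and 2 lower, a share near the 40.4% of all genes.

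Genes for proteins that move Slc2a4 vesicles were mostly higher in muscle and in fat than in liver. Of 19 measured genes of this list, 15 were higher and 4 lower in WT muscle than in WT liver. For WT fat minus WT liver 13 were called higher and 4 were called lower. The median difference was 1.01 for muscle and 0.75 for fat, against -0.01 for all genes in each comparison. Of all genes 40.4% were called for muscle minus liver and 35.4% for fat minus liver, in either direction. Tbc1d4 (AS160), the Rab regulator that insulin signalling acts on, had 7.19, 6.97 and 7.30 in WT muscle, 7.41, 6.96 and 7.30 in WT fat and 5.09, 5.10 and 5.04 in WT liver. Between MKR and WT muscle 14 of the 19 had lower and 5 higher means, with a median of -0.09 and a smallest adjusted p of 0.374, that of Tbc1d1. Its values were 6.11, 6.34 and 7.08 in MKR muscle, against 7.91, 7.04 and 7.08 in WT muscle, and the 2 groups overlapped.

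Among 14 measured regulators of these genes, 11 were called between WT muscle and WT liver, 5 higher and 6 lower, where 40.4% of all genes were called. Mef2d, a muscle transcription factor, was the regulator with the smallest p between MKR and WT muscle, with 8.25, 8.15 and 8.24 in MKR muscle, against 8.62, 8.50 and 8.53 in WT muscle (-0.34, 95% interval -0.54 to -0.13, adjusted p = 0.223). Foxo1 had 5.82, 5.99 and 5.97 in MKR muscle, against 6.21, 6.36 and 6.60 in WT muscle (-0.47, adjusted p = 0.318). In liver Srebf1, which drives lipogenic genes, had 7.66, 7.10 and 6.51 in MKR mice, against 6.71, 6.44 and 6.39 in WT mice (0.58, adjusted p = 0.818). It was highest in MKR replicate 1, as were Gckr, Slc2a2, Slc2a5 and Slc2a9.

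The genes whose values ran closest to each member over 17 arrays (without MKR fat replicate 1) were ranked by Pearson's r, given as a description, since the 17 arrays share 3 tissues and the tissue steps set most of each r. Slc2a2 was closest to Uroc1, Dmgdh and Gnmt, with r of 0.997 each, and Gckr to Gnmt (0.999), Dmgdh and Slc17a3. Slc2a9 was closest to Slc2a2 itself (0.992). Slc2a4 was closest to Sgcb (0.996), Clic5 and Cdc42ep3, and Hk2 to Clic5 (0.995), Cpe and Pdzrn3. For Slc2a3 the closest was Svep1 (0.971), for Slc2a5 Olfm3 (0.959) and for Hk1 Phlda3 (0.978). Slc2a1 had no gene above 0.9, and its closest was Ss18 (0.843), whereas 1154 genes were above 0.9 for Slc2a2 and 710 for Slc2a4.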

How the data were processed

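RNA was measured on 18 Affymetrix Mouse Gene 1.0 ST arrays, from 100 ng of total RNA amplified per sample. The authors ran RMA with quantile normalization on them (Partek 6.3) and deposited log2 values for 241419 probe sets. These run from 1.52 to 3.82, where log2 values transformed to log2 again would lie, so each was taken back 1 step, as the exponent of 2, to the log2 intensities used here (2.87 to 14.15). This step was inferred from the values and is not stated in the sources used here. The genome build of the array annotation is not given in the sources used here. Of the probe sets, 212138 had 1 symbol and were averaged per gene, 4672 had several and 24609 had none, and these were left out. Of 20422 symbols, 17626 were current and 2743 were matched through a synonym in the GRCm38.p6 gene names. No array was a copy of another (0 identical pairs), and their number limits the precision.

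MKR and WT, the WT tissues, and the MKR changes between tissues were compared with limma 3.58.1 in R 4.3.3 (a mean for each of 6 groups, empirical Bayes moderation, Benjamini-Hochberg adjustment over all 20358 genes, threshold 0.05). With 3 arrays a group an exact permutation test could not go below 0.1 and was not used. The fit was tested on simulated data. The methods of the study called genes at a fold over 1.5 with an unadjusted p under 0.05. Figures and tables were made in Python 3.11.15 with pandas 2.3.3 and matplotlib 3.10.9, and promoter sequences came from RefSeq.

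The 9 genes are all named, with the 3 genes most like each by Pearson's r and, from each list, up to 4 called genes or otherwise up to 2 by smallest p. Markers are named where a result turns on them. The members and lists were chosen with earlier results of these data known. Equal replicate numbers of MKR and WT denote different mice, and their deviations correlated between -0.312 and 0.292. In WT mice a number is 1 mouse across tissues (r from -0.119 to 0.203). The alternatives were other arrays, blocks, summaries, filters, normalizations, weights and thresholds, and omission of each array in turn.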

Additional observations from a re-analysis of the deposited data

How the results depend on the processing

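The number of genes called stayed within 1.5 times its value under 118 alternatives and rose in 1: without WT liver replicate 3, 1 gene (Gckr) was called between MKR and WT liver. With each array omitted in turn this count ran from 0 to 1 in liver, was 0 in fat and muscle, and ran from 8 to 8 for WT muscle minus liver, 7 to 8 for fat minus liver and 3 to 5 for muscle minus fat. With the replicate number as a block or the mouse as a random block, the MKR counts stayed 0 in fat, liver and muscle. The counts for the WT tissues stayed at 8, 8 and 4. The mouse as a fixed block, chosen after seeing the data, was fitted in the 9 WT arrays alone. That fit left the WT counts at 8, 8 and 4 and gave no comparison of MKR with WT. MKR and WT arrays of equal number are no pairs. No called difference turned its direction. At the methods' thresholds 3 of the WT calls fell below a fold of 1.5, those of Slc2a3 for muscle minus liver (0.58), Slc2a5 for fat minus liver (-0.54) and Hk1 for muscle minus fat (-0.37). Hk1 for muscle minus fat also lost its call after quantile normalization (-0.28, adjusted p = 0.0635 by limma) and without WT fat replicate 1 or 2 or WT muscle replicate 2, and Slc2a9 gained one for muscle minus fat with the arrays of these groups alone (adjusted p = 0.0397) and with array weights (adjusted p = 0.0497).

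Differences near 0 changed sign without being called, and the cause was not tested. With the median of probe sets MKR minus WT was 0.0087 for Slc2a3, -0.0036 for Hk1 and -0.0024 for Hk2 in fat, -0.16 for Slc2a1 and -0.11 for Hk1 in liver and 0.086 for Slc2a1 in muscle. In WT mice it gave -0.016 for Slc2a1 (fat minus liver) and -0.052 for Gckr (muscle minus fat). For the MKR change between tissues it gave 0.034 for Slc2a1 and 0.071 for Slc2a3 (fat minus liver), 0.24 for Slc2a1, 0.0016 for Slc2a3, 0.047 for Slc2a4 and 0.077 for Hk1 (muscle minus liver) and 0.098 for Slc2a9 (fat minus muscle). With array weights MKR minus WT was 0.10 for Slc2a2, 0.021 for Slc2a3, -0.14 for Slc2a9 and -0.002 for Hk2 in fat, -0.089 for Slc2a1 and 0.041 for Slc2a3 in liver, and 0.065 for Slc2a1 and -0.0034 for Gckr in muscle. Quantile normalization gave 0.0015 for Slc2a3 and 0.014 for Slc2a4 in liver and 0.042 for Slc2a1 and -0.055 for Gckr in muscle. The deposited values as they stand gave 0.0009 for Slc2a4 in liver, and omission of the 3 muscle arrays with raised Alb, chosen after seeing the data, gave 0.26 for Slc2a1 in muscle.

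With each array omitted in turn, MKR minus WT in fat ran from -0.30 to 0.062 for Slc2a1, -0.083 to 0.044 for Slc2a2, -0.12 to 0.13 for Slc2a3, -0.18 to 0.044 for Slc2a5, -0.15 to 0.30 for Slc2a9 and -0.15 to 0.19 for Hk2. In liver it ran from -0.12 to 0.30 for Slc2a1, -0.078 to 0.084 for Slc2a3, -0.066 to 0.039 for Slc2a4, -0.057 to 0.10 for Hk1 and -0.13 to 0.026 for Hk2, and in muscle from -0.13 to 0.15 for Slc2a1 and -0.011 to 0.048 for Gckr. Gckr ran from -0.0076 to 0.15 for WT muscle minus WT fat. Without MKR fat replicate 1 the MKR change between tissues was -0.0009 for Hk1 (fat minus liver) and 0.15 for Slc2a4 (fat minus muscle). Signal over background was not analysed here, and a gene mean near 5 in every array of a tissue cannot by itself be told from background in that tissue.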
